A study of Mus musculus with 6 samples.

Results

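The amino acid response and serine one-carbon genes are 33 mouse genes, chosen by symbol from the 53927 gene symbols counted in each library: the stress transcription factor Atf4, its partners and targets, the enzymes that make serine, proline, asparagine, alanine and cysteine, the folate enzymes that carry serine carbon, and 8 amino acid transporters. They were compared between mouse embryonic stem cells (ESCs) in BRD0705/PD03 and in 2i, with 3 RNA-seq libraries from each medium. The base was serum-free N2B27, with 1 µM of the MEK inhibitor PD0325901 in both media. To this, 2i added 3 µM CHIR99021, which blocks both GSK3 forms, and BRD0705/PD03 added 8 µM BRD0705, which acts selectively on the alpha form. The labels give every library the same line (E14), cell type and genotype (WT), whereas the growth protocol describes B6D2F1 ESCs that were derived and grown on feeder cells in each medium. No label ties the libraries of a group to separate cultures: p-values here cover the spread among libraries alone, and that spread may be technical.

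When a cell runs short of an amino acid, uncharged tRNA activates the kinase GCN2, which phosphorylates the translation factor eIF2 alpha. Most translation then slows while that of Atf4 rises, and ATF4 protein, with C/EBP partners, binds composite C/EBP-ATF elements in genes for amino acid uptake and synthesis. Serine made from glycolysis gives its side-chain carbon to folate through the SHMT enzymes, and the folate enzymes of cytosol and mitochondria pass it on for purine, thymidylate and methionine synthesis. Mouse ESCs depend strongly on this carbon, which they also draw from threonine. RNA counts do not measure the translation of Atf4 or the activity of any enzyme.

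Library totals ranged from 16968959 to 51180228 counts. Levels are counts per 1000000 (CPM) with TMM-scaled library sizes, a level given as mean ± SD with n = 3 per group, and differences are log2 fold changes ± SE (positive where BRD0705/PD03 was higher) from edgeR's quasi-likelihood test, called at a Benjamini-Hochberg adjusted p under 0.05 over 20422 genes. The libraries differed in ways other than the medium. Ddx3y, a Y-linked gene, stood at 114 to 127 CPM in BRD0705/PD03 and 2.84 to 3.32 CPM in 2i, and 566 expressed X-linked genes had a median log2 fold change of -0.80, so the 2i libraries go against a label that gives all 6 libraries a male line, and medium and cell origin cannot be told apart in any result here. None of the 33 members is X-linked. Of 18 fibroblast markers, 17 were called higher and 0 lower in BRD0705/PD03, and their summed level was 1020, 1350 and 1520 CPM in BRD0705/PD03 replicates 1 to 3 against 597 to 630 CPM in 2i; none of the 18 was at 0 in any library. The part of feeder cells in the members' levels was not tested. In bulk RNA, fewer cells of a type and less RNA per cell cannot be told apart.

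The 33 members did not move as a block. All passed the filter on low counts, 7 were called higher (21.2% of them) and 13 lower in BRD0705/PD03, and 13 were not called. The 20 calls are 60.6% of the members, near the 61.4% called among all genes tested, of which 30.1% were higher and 31.4% lower. Groups did not overlap for 24 members (72.7%), 9 with BRD0705/PD03 above and 15 below, beside 66.0% of all genes (32.4% above and 33.6% below). Changes were small: only Asns was called with a change of 2-fold or more, 3.03% of the members beside 21.2% of all genes. The median size of the log2 fold change was 0.22 over the members, 0.40 over all genes and 0.31 over the 11276 genes tested within the members' range of mean CPM. The median signed value was -0.11 over the members, 0.00 over all genes and -0.035 over the genes in that range. Against a minimum fold of 1.5, 5 members stayed called (15.2%, beside 24.9% of all genes): Asns, Slc7a1, Pycr1 and Phgdh as lower and Slc38a2 as higher. Members are well-expressed genes; among the genes in that range, 72.6% were called and 14.0% were called with at least 2-fold change.

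**Figure D1:**
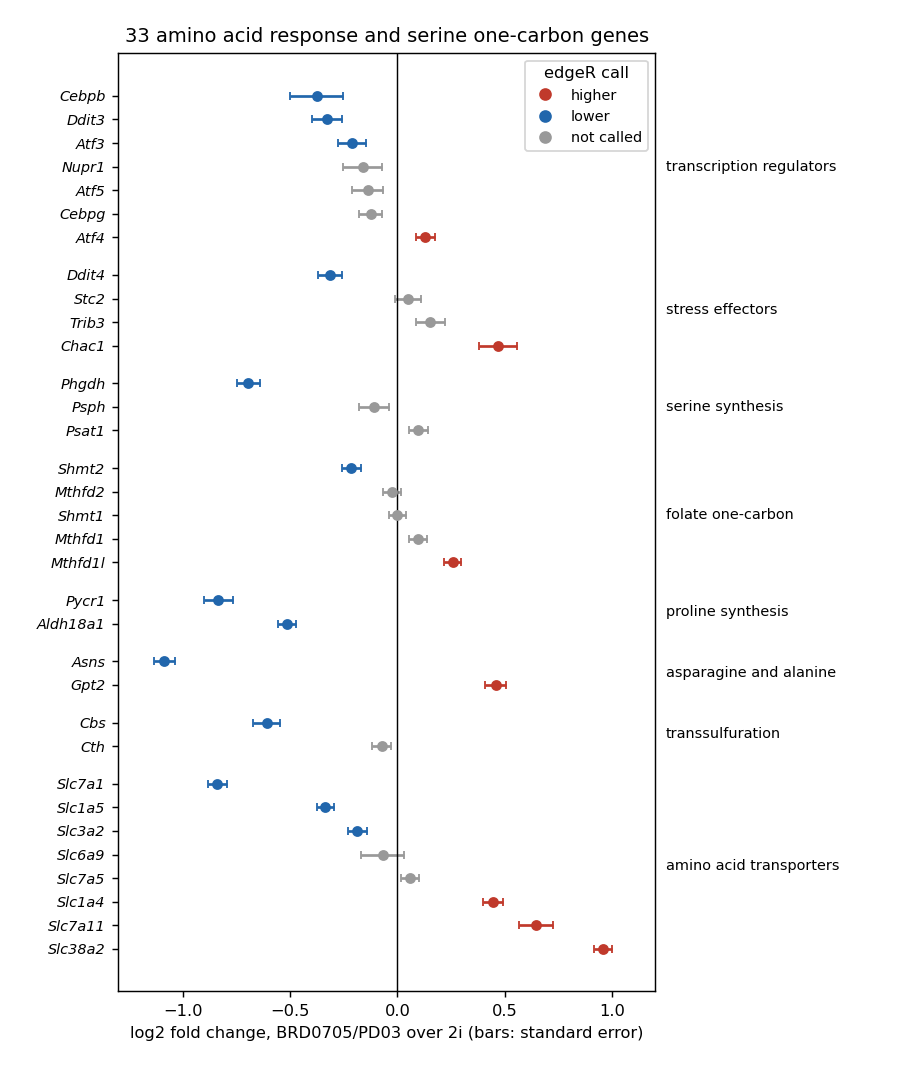
Log2 fold change of BRD0705/PD03 over 2i for each of the 33 members, grouped by role, with the standard error as bars and the edgeR call as colour (n = 3 libraries per group). Asns lies lowest at -1.08 and Slc38a2 highest at 0.96, and most role groups hold members on both sides of 0.

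The regulators differed little between media. Atf4, which encodes the central activator of the response (chromosome 15, 80255184 to 80257541, GRCm38), stood at 448, 487 and 466 CPM in the BRD0705/PD03 libraries and at 427, 444 and 410 CPM in the 2i libraries. The groups lay just apart, and the difference was 0.13 ± 0.04 (adjusted p = 0.0145), or 9.46% higher in BRD0705/PD03; without BRD0705/PD03 replicate 2 it was not called (adjusted p = 0.0937). Ddit3, which encodes the ATF4-induced factor CHOP, went the other way at 20.5, 21.6 and 25.2 CPM in BRD0705/PD03 against 28.1, 28.3 and 28.4 CPM in 2i (-0.33 ± 0.07, adjusted p = 0.000538). All 3 BRD0705/PD03 libraries lay below the 2i libraries, with replicate 3 nearest to them. Atf3, a stress-induced repressor, differed by -0.21 ± 0.06 (22.5 ± 0.893 against 25.9 ± 1.76 CPM, adjusted p = 0.0083), a call lost without BRD0705/PD03 replicate 3 (adjusted p = 0.0526), without 2i replicate 2 (adjusted p = 0.109), with upper-quartile factors (adjusted p = 0.0589) and with DESeq2 (adjusted p = 0.0656).

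The C/EBP genes encode partners of ATF4. Cebpb stood at 4.51 ± 0.299 against 5.77 ± 0.73 CPM (-0.37 ± 0.12, adjusted p = 0.0133). It lost its call without BRD0705/PD03 replicate 2 (adjusted p = 0.0656), without 2i replicate 2 (adjusted p = 0.154), with thinned libraries (adjusted p = 0.067) and with DESeq2 (adjusted p = 0.11). Cebpg (-0.13 ± 0.05, adjusted p = 0.0506), Atf5, a stress-induced factor of the ATF4 family (-0.14 ± 0.07, adjusted p = 0.112), and Nupr1, a small stress-induced nuclear protein (-0.16 ± 0.09, adjusted p = 0.164), did not pass the test. Without BRD0705/PD03 replicate 3, Cebpg (adjusted p = 0.0417) and Nupr1 (-0.25, adjusted p = 0.00731) were called lower. The value of Nupr1 was -0.08 without BRD0705/PD03 replicate 1 (adjusted p = 0.383) and -0.085 without 2i replicate 2 (adjusted p = 0.481). Of the 7 regulators, 1 was therefore called higher and 3 lower, with differences between -0.37 and 0.13. That is 57.1% called, beside 61.4% of all genes (30.1% higher and 31.4% lower).

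Effectors that act in stressed cells split. Chac1, which encodes an enzyme that breaks down glutathione, stood at 35.3, 40.1 and 35.6 CPM in BRD0705/PD03 and 29.2, 28.1 and 22.8 CPM in 2i (0.47 ± 0.09, adjusted p = 0.000853). Ddit4, which encodes the mTORC1 inhibitor REDD1, stood at 54.4, 50.1 and 56.6 CPM against 68.5, 69.8 and 62.1 CPM (-0.32 ± 0.06, adjusted p = 7.64e-05). Neither pair of groups overlapped, and the genes moved in opposite directions. Trib3, which encodes a pseudokinase induced by ATF4 and CHOP, had overlapping groups (48.4 ± 2.67 against 43.5 ± 4.29 CPM, 0.15 ± 0.07, adjusted p = 0.0651). It was called higher without BRD0705/PD03 replicate 1 (adjusted p = 0.0437), without 2i replicate 2 (adjusted p = 0.0139) and in 5 other settings, whereas without 2i replicate 3 the difference was 0.08 (adjusted p = 0.189). Stc2, a secreted glycoprotein gene, was at 29.6 ± 1.54 against 28.4 ± 1.85 CPM (0.05 ± 0.06, adjusted p = 0.52).

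The enzymes held the largest decrease. Asns encodes asparagine synthetase (chromosome 6, 7675169 to 7693254), a widely used reporter gene of the amino acid response. It stood at 418, 474 and 474 CPM in BRD0705/PD03 and at 962, 983 and 952 CPM in 2i. Every BRD0705/PD03 library held about the same reduced level, and the difference was -1.08 ± 0.05 (adjusted p = 6.66e-13), a level 2.12-fold lower in BRD0705/PD03. The call held in all alternatives, with values of -1.12 to -1.02. Gpt2, which encodes the mitochondrial alanine transaminase, differed in the other direction at 192, 217 and 203 CPM against 149, 155 and 140 CPM (0.46 ± 0.05, adjusted p = 3.88e-07). Per kilobase of exon, Asns was the most abundant member in 2i at 447 CPM per kb, ahead of Atf4 at 247 and Psat1 at 182, whereas in BRD0705/PD03 Atf4 led at 271 CPM per kb, followed by Asns at 211 and Psat1 at 194.

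Both members for proline synthesis fell. Aldh18a1, which encodes the enzyme that reduces glutamate to the proline precursor (chromosome 19, 40550257 to 40588463), stood at 113, 122 and 118 CPM in BRD0705/PD03 and 169, 171 and 164 CPM in 2i (-0.51 ± 0.04, adjusted p = 2.75e-09). Pycr1, which encodes the mitochondrial reductase of the last step (chromosome 11, 120635712 to 120643769), stood at 17.0, 20.2 and 19.6 CPM against 34.0, 35.0 and 32.1 CPM (-0.84 ± 0.07, adjusted p = 3.46e-09). The groups lay well apart for both genes.

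Among the serine enzymes the entry step stood alone. Phgdh, which encodes the enzyme that commits the glycolytic intermediate 3-phosphoglycerate to serine (chromosome 3, 98313170 to 98339990), stood at 134, 144 and 135 CPM in BRD0705/PD03 and 228, 236 and 204 CPM in 2i (-0.69 ± 0.05, adjusted p = 1.21e-08). Psat1, the transaminase of the following step, had groups just apart in the other direction at 557, 582 and 572 CPM against 546, 551 and 502 CPM, and did not pass the test (0.10 ± 0.04, adjusted p = 0.0596). It was called higher without BRD0705/PD03 replicate 1 (adjusted p = 0.0335), without 2i replicate 2 (adjusted p = 0.0072) and in 4 other settings, whereas without 2i replicate 3 the difference was 0.06 (adjusted p = 0.12). Psph, the phosphatase that releases serine, stood at 54.6 ± 2.09 against 58.7 ± 6.3 CPM (-0.11 ± 0.07, adjusted p = 0.195). It was called lower without 2i replicate 3 (-0.19, adjusted p = 0.00241) and differed by -0.0155 without 2i replicate 2 (adjusted p = 0.847). The symbol Phgdh-ps1 names a pseudogene of Phgdh, and how reads that fit both copies were counted is not stated.

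The folate enzymes changed little. Shmt2, the mitochondrial hydroxymethyltransferase that splits serine into glycine and a folate-bound carbon, stood at 172, 178 and 176 CPM in BRD0705/PD03 against 209, 212 and 189 CPM in 2i (-0.22 ± 0.05, adjusted p = 0.000416), while its cytosolic counterpart Shmt1 was at 150 ± 3.8 against 150 ± 3.51 CPM (adjusted p = 0.985). Mthfd1l, the mitochondrial enzyme that releases formate, stood at 159, 163 and 162 CPM against 134, 141 and 129 CPM (0.26 ± 0.04, adjusted p = 2.53e-05). Both called folate genes act in mitochondria and moved in opposite directions. Mthfd2, which oxidises the folate-bound carbon in mitochondria, was at 144 ± 2.11 against 147 ± 5.26 CPM (-0.03 ± 0.04, adjusted p = 0.609). The cytosolic trifunctional enzyme gene Mthfd1 was at 292 ± 14.7 against 274 ± 1.97 CPM (0.09 ± 0.04, adjusted p = 0.0608), and was called higher in 5 settings that kept all libraries and without BRD0705/PD03 replicate 1 (adjusted p = 0.00547), 2i replicate 2 (adjusted p = 0.0366) or 2i replicate 3 (adjusted p = 0.0333), whereas without BRD0705/PD03 replicate 2 the difference was 0.06 (adjusted p = 0.28).

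Transsulfuration turns homocysteine into cysteine in consecutive steps. Cbs, which opens the route by joining serine to homocysteine, stood at 16.9, 17.5 and 17.6 CPM in BRD0705/PD03 and 25.8, 27.7 and 25.7 CPM in 2i (-0.61 ± 0.06, adjusted p = 7.63e-08). Cth, which releases cysteine, was at 183 ± 7.01 against 192 ± 9.59 CPM with overlapping groups (-0.07 ± 0.04, adjusted p = 0.168). It was called lower without 2i replicate 3 (-0.10, adjusted p = 0.0283), and differed by -0.0198 without 2i replicate 2 (adjusted p = 0.71) and -0.04 without BRD0705/PD03 replicate 1 (adjusted p = 0.452).

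**Figure D2:**
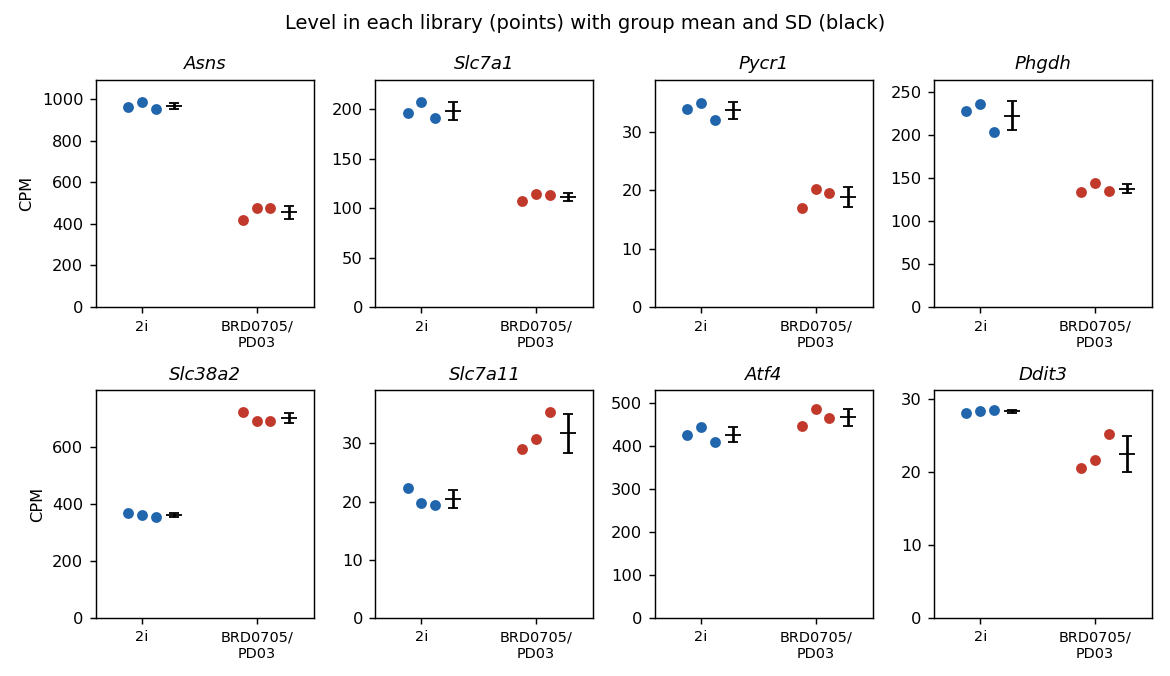
CPM of 8 members in each library, with 2i and BRD0705/PD03 on the horizontal axis, points for the 3 libraries of each medium and the group mean with SD in black. The groups do not overlap for any of the 8; Asns falls from 952 to 983 CPM in 2i to 418 to 474 CPM in BRD0705/PD03, and Atf4 and Ddit3 lie much closer together.

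Of the 8 transporters, 3 were called higher, 3 lower and 2 not called, that is 6 of 8 called, beside 61.4% of all genes and 72.6% of genes in the members' CPM range. Slc38a2, which encodes the sodium-coupled neutral amino acid transporter SNAT2 (chromosome 15, 96687392 to 96699730), stood at 720, 691 and 690 CPM in BRD0705/PD03 and 369, 359 and 355 CPM in 2i. It was 1.94-fold higher (0.96 ± 0.04, adjusted p = 1.87e-13), and the call held in all alternatives at 0.94 to 1.02. Slc7a1, which encodes the cationic transporter CAT1 for arginine and lysine (chromosome 5, 148327410 to 148399904), stood at 107, 114 and 113 CPM against 196, 208 and 191 CPM, 1.79-fold lower (-0.84 ± 0.04, adjusted p = 5.39e-12). SNAT2 and CAT1 are both induced by amino acid shortage in many cells, and here their transcripts moved apart by similar amounts. Whether amino acid supply has a part in either difference was not tested.

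Slc7a11 encodes xCT, the cystine importer that exchanges cystine for glutamate (chromosome 3, 49892526 to 50443614). It stood at 29.0, 30.8 and 35.4 CPM in BRD0705/PD03 and 22.3, 19.7 and 19.4 CPM in 2i (0.64 ± 0.08, adjusted p = 2.73e-06). Its heavy chain partner gene Slc3a2, also used by other light chains, was lower at 276, 290 and 279 CPM against 330, 331 and 301 CPM (-0.19 ± 0.04, adjusted p = 0.00109). Slc7a5, the large neutral amino acid light chain LAT1 that pairs with the same heavy chain, was at 234 ± 3.94 against 225 ± 8.59 CPM (0.06 ± 0.04, adjusted p = 0.23); with upper-quartile factors it was called higher (0.12, adjusted p = 0.00523). The exchangers for alanine, serine and cysteine also split. Slc1a4 (ASCT1) was higher at 68.5, 73.8 and 73.0 CPM against 52.5, 54.0 and 51.7 CPM (0.44 ± 0.05, adjusted p = 1.13e-07), and Slc1a5 (ASCT2) was lower at 195, 207 and 201 CPM against 259, 256 and 246 CPM (-0.34 ± 0.04, adjusted p = 6.16e-07). Slc6a9, the glycine transporter GlyT1, had overlapping groups at 9.03 ± 0.281 against 9.59 ± 1.35 CPM (-0.07 ± 0.10, adjusted p = 0.573).

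Ratios of counts within a library do not depend on the scaling between libraries. For 6 pairs chosen by function, the exact two-sided permutation test over 3 against 3 libraries cannot give a p below 0.1, so none could pass the threshold. The Psat1 to Phgdh ratio was 4.15, 4.03 and 4.24 in BRD0705/PD03 and 2.40, 2.33 and 2.46 in 2i, a log2 difference of 0.79 (exact permutation p = 0.1, adjusted p = 0.12 over 6 pairs). The Slc7a11 to Slc3a2 ratio was 0.105, 0.106 and 0.127 against 0.0676, 0.0594 and 0.0644, a log2 difference of 0.81. The geometric mean of the Slc7a5 to Slc3a2 ratio was 0.831 in BRD0705/PD03 and 0.702 in 2i, and the ratios of Shmt2 to Shmt1 (1.17 against 1.35) and of Ddit3 to Atf4 (0.0479 against 0.0663) were lower in BRD0705/PD03. Groups did not overlap for these 5 pairs, each at the smallest exact permutation p of 0.1, and they overlapped for Mthfd2 to Mthfd1 (0.493 against 0.535, exact permutation p = 0.2). For scale, groups did not overlap for 66.0% of single genes tested, and pairs of other genes were not examined.

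**Figure D3:**
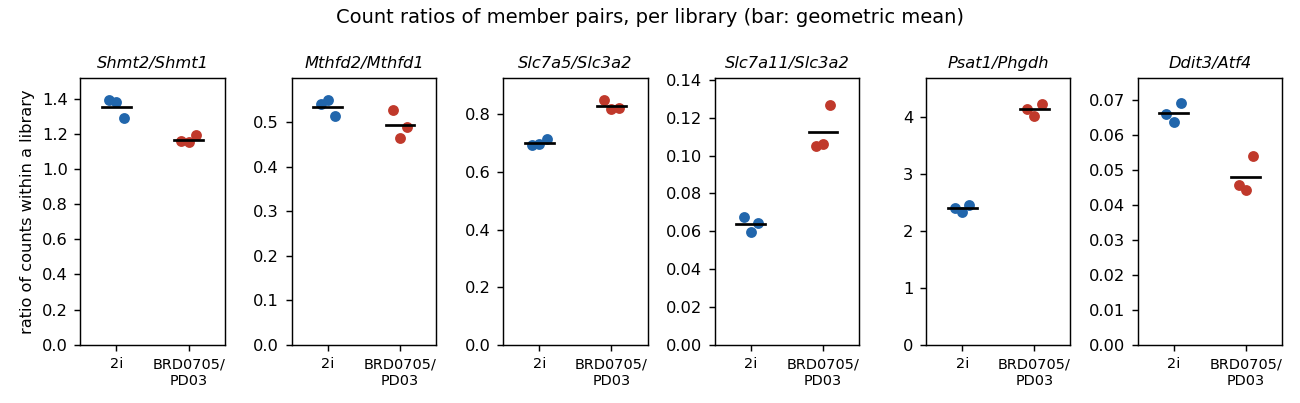
Ratio of counts of 2 members within each library, for 6 pairs, with points for libraries and bars for geometric means. Psat1 to Phgdh lies at 4.03 to 4.24 in BRD0705/PD03 and at 2.33 to 2.46 in 2i, and only Mthfd2 to Mthfd1 has overlapping groups.

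The promoters are shown because the members with a match to the element that ATF4 and its C/EBP partners bind moved both ways. Only the window given below was searched, so a member without a match may hold the element elsewhere. RefSeq promoters on GRCm38.p6 (250 bases before to 50 after a start site) were matched by symbol for 30 of the 33 members; those of Slc7a5, Slc1a5 and Cth were not used here. The core of the C/EBP-ATF element, TGATGNAA on either strand, was found in 8 of 35 member promoters, beside 3.97% of the 32851 promoters in the table; many members are on the list because they are known ATF4 targets, so the share describes the list and tests nothing. The 9 matches are given with 11 bases on each side, 5′ to 3′ on the strand that spells the motif, which is in capitals.
Asns, chr6:7693214-7693243, minus strand: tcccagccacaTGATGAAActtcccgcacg
Pycr1, chr11:120643833-120643862, minus strand: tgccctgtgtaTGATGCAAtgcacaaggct
Atf3, chr1:191183425-191183454, plus strand: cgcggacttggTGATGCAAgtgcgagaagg
Chac1, chr2:119351038-119351067, minus strand: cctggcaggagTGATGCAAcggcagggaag
Slc1a4, chr11:20332699-20332728, plus strand: caggctggagaTGATGCAAcgcaggaggca
Slc7a11, chr3:50443661-50443690, minus strand: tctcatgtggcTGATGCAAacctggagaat
Slc7a11, chr3:50443642-50443671, plus strand: gggctgcatgaTGATGCAAattctccaggt
Nupr1, chr7:126625562-126625591, plus strand: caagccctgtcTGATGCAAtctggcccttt
Trib3, chr2:152344028-152344057, plus strand: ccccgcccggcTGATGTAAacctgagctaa

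Of these 8 genes, 3 were called higher (Chac1, Slc1a4 and Slc7a11), 3 lower (Asns, Pycr1 and Atf3) and 2 not called (Nupr1 and Trib3). The Atf3 call was lost in some alternatives, as given above. Among all genes tested, 61.4% were called (30.1% higher and 31.4% lower), so a split of this kind is not particular to these genes. The letters TGATGCAA stood in promoters of genes from all 3 sets. The motif began 23 bases before the RefSeq start site in Asns, 103 in Pycr1 and 193 in Chac1. In Slc7a11 it began at 66 and at 47 bases before the start site, on opposite strands, and these windows share bases. A match is a description of these letters and no evidence of binding in these cells. The Myc-type E-box CACGTG, which reads the same on both strands, was found in promoters of 3 members (Aldh18a1, Cbs and Nupr1) and in 7.15% of all promoters.

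Companion lists describe the rest of the pathway from the same fit. Their shares of called genes ran from 69.2% to 84.0%, beside 61.4% of all genes tested (30.1% higher and 31.4% lower, median 0.00) and 72.6% of genes in the members' CPM range, so calls in both directions are usual for lists in these data. Of 14 genes for eIF2 alpha, its kinases and their regulators, its phosphatase subunits and its exchange factor eIF2B, 2 were called higher and 8 lower (median -0.23). Eif2s1, which encodes eIF2 alpha itself, was not called, nor were Eif2b1 and Eif2b2; these 3 were chosen after their values were seen. Eif2ak4, which encodes the amino acid sensor kinase GCN2, stood at 37.6 ± 1.78 against 59.2 ± 0.607 CPM (-0.66 ± 0.05, adjusted p = 9.97e-10). Eif2b5, the catalytic subunit of eIF2B, stood at 180 ± 10.5 against 418 ± 19.7 CPM (-1.22 ± 0.05, adjusted p = 1.96e-13), and Eif2b4 at 40.0 ± 1.07 against 55.8 ± 3.06 CPM. Ppp1r15a, the stress-induced phosphatase subunit GADD34 and itself an ATF4 target, was higher (51.9 ± 2.81 against 42.5 ± 2.33 CPM, 0.28 ± 0.05). The number called higher was 4 with upper-quartile factors and when genes were kept at a mean CPM of at least 1.

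Of 27 other ATF4 targets tested, 7 were called higher and 12 lower (median -0.08), or 70.4% called beside 61.4% of all genes, and Fgf21 was under the filter. Gdf15, a secreted stress factor, stood at 5.02 ± 0.109 against 11.7 ± 0.459 CPM (-1.23 ± 0.09), Jdp2, a repressor of the AP-1 family, differed by -1.17 ± 0.07, and the growth factor gene Vegfa by -0.72 ± 0.06. Slc43a1, a neutral amino acid transporter gene, was higher at 10.7 ± 0.511 against 5.13 ± 0.14 CPM (1.06 ± 0.09).

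Genes around the folate and methionine cycles included larger differences. Of 25 tested, 8 were called higher and 13 lower (median -0.28), or 84.0% called beside 61.4% of all genes, and Ftcd was under the filter. Ahcy, which clears the product of methylation reactions, stood at 107 ± 6.48 against 293 ± 12.5 CPM (-1.46 ± 0.05). Aldh1l1, the cytosolic enzyme that oxidises formyl-folate, stood at 10.8 ± 0.251 against 37.1 ± 0.7 CPM (-1.79 ± 0.06), and Bhmt, which remethylates homocysteine from betaine, at 0.108 ± 0.0417 against 7.75 ± 0.514 CPM (-6.09 ± 0.23). The BRD0705/PD03 libraries held only a few counts of Bhmt each (0.0726 to 0.154 CPM), so the size of its fold is uncertain. Mthfd2l, an isozyme of Mthfd2, was higher at 6.14 ± 0.41 against 3.88 ± 0.441 CPM (0.68 ± 0.12). Of 8 tested genes for glycine and threonine breakdown, 2 were higher and 4 lower (median -0.13). The glycine cleavage subunits Amt (-0.87 ± 0.05) and Gcsh (-0.77 ± 0.05) fell, and Dld, a subunit shared with other mitochondrial complexes, rose by 0.58 ± 0.05. Gldc, a further glycine cleavage subunit, was also called higher at 236 ± 9.49 against 191 ± 3.2 CPM (0.30 ± 0.04). Tdh, the threonine dehydrogenase of mouse ESCs, differed by -0.32 ± 0.05. Gldc and Tdh were named after their values were seen. Sds, Sdsl, Agxt and Agxt2 were under the filter.

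Of 13 purine synthesis genes, 5 were called higher and 4 lower (median -0.08). Adsl, an enzyme of the purine route, stood at 172 ± 4.44 against 119 ± 4.59 CPM (0.53 ± 0.04), and Impdh1, which leads to guanine nucleotides, at 20.8 ± 1.0 against 51.2 ± 1.11 CPM, 2.46-fold lower. Prps1 (-1.42 ± 0.04) and Prps2 (-0.81 ± 0.05), which make the ribose phosphate donor, are both X-linked, and X-linked genes as a whole had a median of -0.80. Of 17 tested genes of proline, glutamine and glutamate metabolism, 8 were called higher and 4 lower (median 0.10), with Arg1 and Arg2 under the filter. Glutamine synthetase (Glul) stood at 126 ± 8.28 against 74.2 ± 4.17 CPM (0.77 ± 0.05) and the aspartate transaminase gene Got1 at 216 ± 2.63 against 160 ± 5.46 CPM (0.43 ± 0.04). Gls2, a glutaminase gene, fell by 0.69 on the log2 scale, and Aspg, an asparaginase gene, was higher from a low level (1.88 ± 0.387 against 0.33 ± 0.148 CPM, 2.44 ± 0.29).

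Of 24 other amino acid transporters tested, 8 were called higher and 11 lower (median -0.31), and Slc7a10 was under the filter. Slc7a7, a light chain that pairs with Slc3a2 to export cationic amino acids, stood at 76.2 ± 2.57 against 19.4 ± 2.51 CPM (1.97 ± 0.07). Slc1a1, a glutamate and cysteine transporter gene, stood at 0.701 ± 0.127 against 14.8 ± 0.52 CPM (-4.38 ± 0.13), the taurine transporter gene Slc6a6 at 147 ± 1.03 against 270.0 ± 5.36 CPM (-0.88 ± 0.04), and the X-linked creatine transporter gene Slc6a8 at 39.5 ± 1.42 against 304 ± 2.85 CPM (-2.94 ± 0.04).

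**Figure D4:**
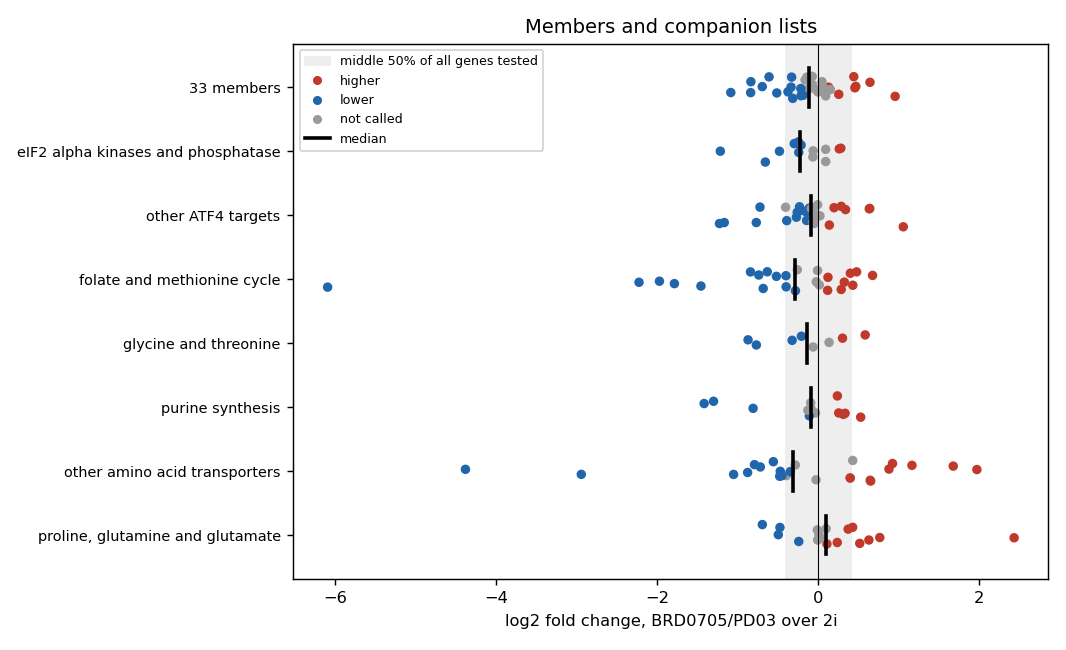
Log2 fold change of BRD0705/PD03 over 2i for the 33 members and for tested genes of 7 companion lists, coloured by edgeR call, with the list median as a black bar and the middle 50% of all genes tested (-0.40 to 0.41) in grey. The lowest point is Bhmt at -6.09, a fold that rests on only a few counts in each BRD0705/PD03 library.

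Exons of 8 members (Ddit3, Atf5, Cebpg, Psph, Shmt1, Shmt2, Mthfd1 and Slc6a9) overlap those of a gene on the opposite strand in GENCODE M21, and whether reads were counted by strand is not stated, so reads of these genes and their neighbours cannot be separated with certainty. The symbol Ddit3 names 2 gene entries in GENCODE M21, and whether its counts combine both is not stated.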

How the data were processed

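RNA-seq libraries of 6 samples, 3 per medium, were grouped and numbered by their titles. The authors deposited whole-number counts per gene symbol, not scaled between libraries; the submitters' processing notes name Salmon and mm10, so the counts may be rounded estimates. The annotation and the use of strand are not given in these sources. Genes were tested over all 6 libraries with edgeR 4.0.16 in R 4.3.3 (filterByExpr, TMM, robust quasi-likelihood fit, group as the only term), with Benjamini-Hochberg adjustment over the 20422 genes that passed. The common biological coefficient of variation was 0.0591. SE was taken as the size of the log2 fold change over the root of the quasi-likelihood F. No pair of libraries of a group matched within sampling noise (chi-square per degree of freedom 2.77 to 9.84 over genes with at least 20 counts). Gene positions and exon lengths (union of exons) came from GENCODE M21 on GRCm38, the same assembly as mm10, and promoters from RefSeq on GRCm38.p6.

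The members and lists were chosen with earlier results of these data known. All members are named, and from each companion list the 3 called genes with the smallest p and the called gene with the largest change in each direction. A gene of these lists that the rule names is not reported here. In simulated counts for BRD0705/PD03 against 2i over 20422 genes, the test called with the right sign 20% of 50 genes changed by 1.2-fold, 48% of 50 at 1.5-fold, 74% of 50 at 2-fold and 98% of 50 at 4-fold. Unchanged genes made up 16.1% of the calls, more than the threshold aims for, so calls of small changes are less certain. The simulation changed only 50 genes per fold, drawn from all genes tested, whereas 61.4% of genes were called in the data. Its shares therefore need not hold for the real calls or for the well-expressed members. Each result was recomputed with DESeq2 1.42.0, with upper-quartile or median-ratio scaling, with no filter or one on mean CPM, against a minimum fold of 1.5, with a replicate block, after thinning to 16968959 counts and without each library in turn.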

Additional observations from a re-analysis of the deposited data

How the results depend on the processing

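Asns, Slc7a1, Pycr1, Phgdh and Slc38a2 kept their call and Stc2 and Atf5 stayed uncalled, all in the same direction, under the 14 alternatives. Between 6 and 10 members were called higher and 11 to 15 lower when each library was left out in turn, against 7 and 13 with all libraries. Upper-quartile factors gave 11 higher, and the median of all genes then moved from 0.00 to 0.07. Against a fold of 1.5, 1 was higher and 4 lower, since that test asks for a larger change. The sign of uncalled members near 0 turned in some settings, and the cause was not tested. Shmt1 (0.00) stood at 0.0075 with median-ratio factors, 0.0645 with upper-quartile factors, 0.0208 without a filter, 0.0219 with a mean of at least 1 CPM, 0.0005 with the replicate block, 0.0023 with thinned libraries and 0.0055 with DESeq2, and between -0.0223 and 0.0332 when each library was left out. Mthfd2 stood at 0.0405 with upper-quartile factors and between -0.0477 and 0.0083 with a library left out, and Slc6a9 at 0.0097 with thinned libraries and between -0.1336 and 0.0329 with a library left out. Of 196 recomputed counts for companion lists, 15 moved by over 1.5 times, 13 of them against the fold of 1.5. Replicate numbers did not pair the libraries: deviations of same-numbered libraries correlated at -0.00822, 0.034 and -0.0357, and 1 of the 6 libraries, BRD0705/PD03 replicate 2, correlated best with its own number. With the replicate block, 8 members were called higher and 13 lower; Trib3 was added (0.16, adjusted p = 0.0253). Thinned to equal totals, the libraries gave 10 members higher and 12 lower. Small changes can be missed with these 6 libraries. The simulated share (20% recovered at 1.2-fold) need not hold for the members, since few genes were changed in the simulation.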
